A study of Mus musculus with 8 samples.

Results

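The genes described here build the contacts of a cell with its neighbours and with the matrix: cadherins, tight junction proteins (claudins, occludin, the Tjp scaffolds and Epcam), desmosome proteins, gap junction connexins, and the alpha and beta subunits of integrins. Members were all protein-coding genes whose symbol begins with Cdh, Cldn, Dsg, Dsc, Pkp, Gja, Gjb, Tjp, Itga or Itgb followed by a number, together with Dsp, Jup, Ocln, Epcam, Itgae, Itgam, Itgav and Itgax. This gave 71 members among 24677 genes, and 38 of the 71 had enough reads to be tested, among 14513 genes tested. Total RNA was sequenced in 8 libraries of 4T1, a mouse mammary carcinoma cell line labelled as triple negative breast cancer. There were 2 libraries in each of 4 groups. Tyro3-OE cells are parental cells in which the receptor tyrosine kinase Tyro3 was overexpressed. Tyro3-KO cells are cells resistant to anti-PD1 in which Tyro3 was knocked out, so they carry the resistant background as well. Resistant cells are the same resistant phenotype with the control genotype, and parental cells are the parental phenotype with the control genotype. All were grown in serum-containing DMEM with no treatment. The labels do not say whether a modified line is 1 clone or a pool, nor whether both libraries of a group come from different cultures, and p-values therefore measure the spread between these libraries alone, which may be technical.

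Adhesion receptors work by binding outside the cell and anchoring the cytoskeleton inside it. Classical cadherins link neighbouring cells to actin through catenins, desmosomes link them to intermediate filaments through plakoglobin, plakophilins and desmoplakin, claudins and occludin seal the space between cells, and connexins form channels from cell to cell. An integrin is a pair of an alpha and a beta subunit that binds a matrix protein or a counter-receptor, and the partners decide the ligand: collagens, laminins, or proteins with an RGD sequence such as fibronectin and vitronectin. In carcinoma cells, cell-to-cell junction genes are often low where mesenchymal genes are high.

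The libraries held between 18001482 and 27261282 reads assigned to genes, of which the 71 members took 0.325% to 0.398%. Levels are given as CPM, read counts relative to the TMM-scaled library size, and 3 reads in a library correspond to 0.117 to 0.178 CPM. Such floors cover counting error only. Tyro3 had 107 and 103 CPM in Tyro3-OE cells, 3.81 and 3.99 CPM in Tyro3-KO cells, 20.7 and 21.2 CPM in resistant cells, and 25.7 and 24.4 CPM in parental cells. Of 17 epithelial marker genes, 15 were listed and 12 tested, and their summed level was 1192 to 1207 CPM in Tyro3-OE cells, 1083 to 1113 CPM in Tyro3-KO cells, 903 to 939 CPM in resistant cells, and 1218 to 1266 CPM in parental cells. The keratins Krt8 and Krt18, at 217 to 540.2 CPM in every library, made up much of it, as did Spint2, at 187 to 267 CPM. Krt8 was lowest in resistant cells, at 232 and 217 CPM. Spint2, at 262 and 267 CPM, and Spint1, at 125 and 122 CPM, were highest there. The epithelial markers Cdh1 and Epcam were at most 4.01 and 1.32 CPM in any library. Of 11 mesenchymal markers, 9 were listed and 7 tested, with sums of 3703 to 3738 CPM in Tyro3-OE cells, 3725 to 3727 CPM in Tyro3-KO cells, 4195 to 4317 CPM in resistant cells, and 3615 to 3754 CPM in parental cells. Its main carriers ran in opposite ways: Vim had 1025 to 1040.2 CPM in Tyro3-OE cells, 2114 to 2129 CPM in Tyro3-KO cells, 563 to 603 CPM in resistant cells and 2610.2 to 2679.8 CPM in parental cells, and Fn1 had 2489 to 2538 CPM in Tyro3-OE cells, 1414 to 1425 CPM in Tyro3-KO cells, 3429 to 3498 CPM in resistant cells and 843 to 906 CPM in parental cells. The leukocyte marker Ptprc had 0 to 3 reads in a library, and none of the 6 listed lymphocyte markers had enough reads to be tested. In bulk RNA, fewer cells of a type and less RNA per cell cannot be told apart, and what part the marker levels have in the results below was not tested.

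Most tested members differed in each of the 3 main comparisons, as most genes did. A gene was called at an adjusted p under 0.05 in the quasi-likelihood test of edgeR, adjusted by Benjamini-Hochberg over all 14513 genes. Between Tyro3-OE and parental cells 29 of 38 members were called, 13 higher and 16 lower, which is 76.3% of the members, while 66.2% of all tested genes were called (32.5% higher and 33.7% lower). Between Tyro3-KO and resistant cells 33 were called, 21 higher and 12 lower, or 86.8% of the members against 72.7% of all genes (37.1% higher and 35.6% lower). Between resistant and parental cells 31 were called, 11 higher and 20 lower, or 81.6% against 71.2% of all genes (35.1% higher and 36.1% lower). Being called is thus no result about these genes, and the sizes and directions carry the description. The median log2 fold change of the tested members was -0.12 in Tyro3-OE against parental cells, 0.23 in Tyro3-KO against resistant cells and -0.39 in resistant against parental cells, where the medians of all genes were 0.03, -0.02 and 0.03. Changes of at least 1 on the log2 scale were called for 11, 19 and 16 members in those comparisons, where 18.7%, 27.1% and 27.4% of all genes had one. With upper-quartile scaling, 15 members were called higher and 12 lower in Tyro3-OE against parental cells, 18 higher and 13 lower in Tyro3-KO against resistant cells, and 14 higher and 18 lower in resistant against parental cells, so that the majority turned in the first of these, while RLE scaling left the 3 splits as they were. With upper-quartile scaling the median of all genes itself moved to 0.17 in Tyro3-OE against parental cells, to -0.17 in Tyro3-KO against resistant cells and to 0.19 in resistant against parental cells.

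**Figure D1:**
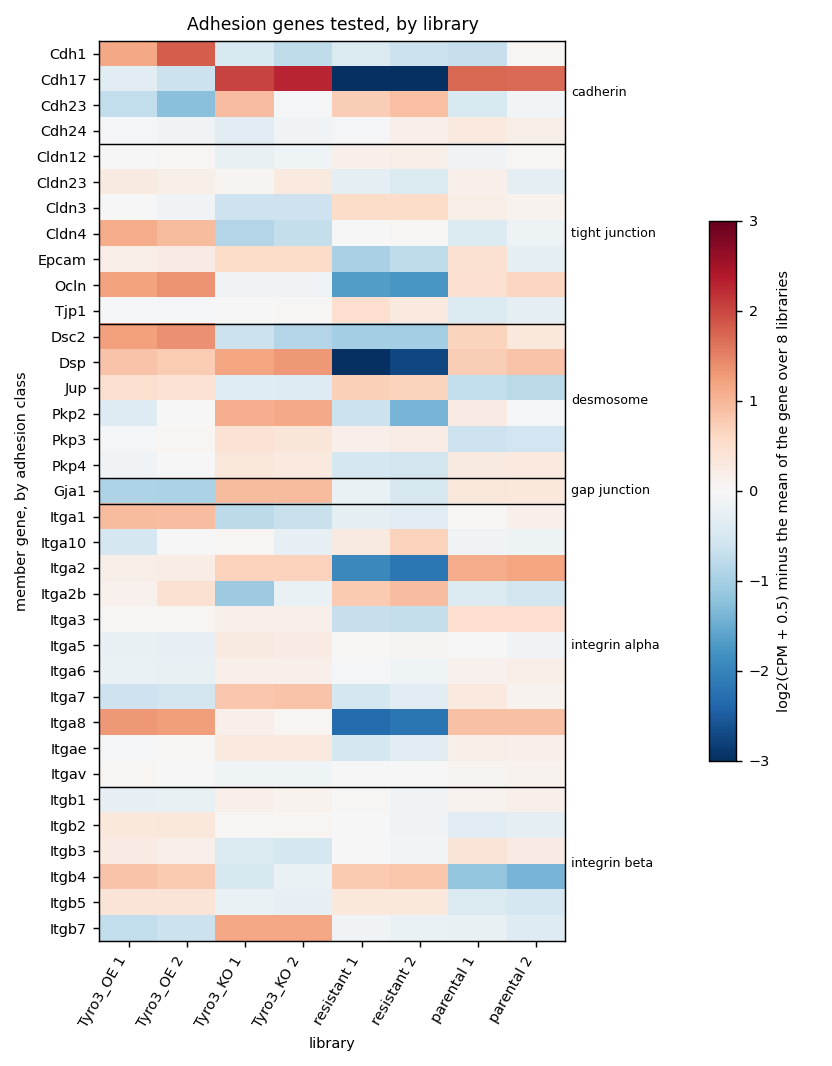
Level of 35 of the 38 tested members in each of the 8 libraries, as log2(CPM + 0.5) minus the mean of the gene over the libraries, with genes in rows by adhesion class and libraries in columns. Colours saturate at -3 and 3. The resistant libraries are darkest blue for Cdh17, Dsp, Itga2 and Itga8, and the libraries of a group have similar colours in most rows.

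Large differences fell on a set of genes that were low in resistant cells and higher in the other 3 groups: Cdh17, Dsp, Itga2, Itga8, Ocln and, at low level, Epcam. Another set, Jup, Itgb4 and Itgb5, was highest in Tyro3-OE and resistant cells and lower in Tyro3-KO and parental cells. It ran opposite to the first set in resistant cells, against parental and against Tyro3-KO cells. In Tyro3-OE against parental cells it did not, since Ocln and Itga8 rose there too and Dsp and Epcam were not called. Of 8 fibroblast markers, 7 were listed and 4 tested, and their sum was likewise higher in the same groups, at 202 to 209 CPM in Tyro3-OE cells, 104 to 105 CPM in Tyro3-KO cells, 176 to 191 CPM in resistant cells and 97.5 to 98.6 CPM in parental cells. Most of it was Pdgfra and Pdgfrb, while Col1a1 had at most 32 reads and Col1a2 at most 2 in a library, and their part in the result was not tested. The 250 bases before the RefSeq start (GRCm38.p6, taken from RefSeq) are printed here for 3 genes of the first set and 1 of the second, to set windows with and without a motif beside each other in genes of either set. Capitals mark CACCTG, read on either strand so that it can appear as CAGGTG. It is the E-box bound by the repressors of the Snai and Zeb families, and no other motif is capitalised. The windows are chr13:38151044-38151293 on the plus strand for Dsp, chr13:114932101-114932350 on the minus strand for Itga2, chr17:87635729-87635978 on the plus strand for Epcam and chr16:33829415-33829664 on the plus strand for Itgb5.
Dsp: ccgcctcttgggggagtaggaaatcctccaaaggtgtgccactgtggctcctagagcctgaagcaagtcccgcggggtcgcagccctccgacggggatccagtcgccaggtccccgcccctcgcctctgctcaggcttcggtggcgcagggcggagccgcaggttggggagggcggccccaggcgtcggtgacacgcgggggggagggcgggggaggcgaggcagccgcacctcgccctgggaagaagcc
Itga2: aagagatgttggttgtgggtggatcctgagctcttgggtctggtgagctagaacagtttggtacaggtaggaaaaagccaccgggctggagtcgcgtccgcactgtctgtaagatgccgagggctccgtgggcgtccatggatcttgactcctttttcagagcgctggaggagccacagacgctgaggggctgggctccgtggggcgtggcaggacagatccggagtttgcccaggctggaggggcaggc
Epcam: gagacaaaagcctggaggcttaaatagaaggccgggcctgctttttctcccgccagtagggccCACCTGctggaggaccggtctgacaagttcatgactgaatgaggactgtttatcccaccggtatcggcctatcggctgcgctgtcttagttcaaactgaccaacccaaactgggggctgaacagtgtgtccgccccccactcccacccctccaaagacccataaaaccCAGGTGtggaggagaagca
Itgb5: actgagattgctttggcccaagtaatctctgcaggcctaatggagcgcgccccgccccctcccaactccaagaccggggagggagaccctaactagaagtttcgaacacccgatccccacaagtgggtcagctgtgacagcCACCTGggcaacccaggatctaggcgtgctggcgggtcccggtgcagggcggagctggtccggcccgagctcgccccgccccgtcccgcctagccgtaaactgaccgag
The Epcam window held the motif at 2 places, beginning 187 and 19 bases before the start, and the Itgb5 window held it once, 109 bases before the start. The Dsp and Itga2 windows held none. A promoter was listed for 23 of the 38 tested members, in 28 windows since some genes have more than 1. Of these genes 6 had the motif in a window (Cldn4, Epcam, Itga3, Itgb5, Ocln and Pkp4). Of all 32851 promoter windows of this length 17.2% had it, a share of windows and not of genes, so the 2 figures are not alike. A match describes the letters in a window and is not a binding site. Of the 6 genes, Epcam, Itga3, Ocln and Pkp4 were called lower in resistant than in parental cells, Itgb5 higher, and Cldn4 was not called. In that comparison 20 of the 38 tested members and 36.1% of all genes were called lower. Whether the motif has a part in these levels was not tested.

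Cadherins split into 1 gene that moved by a large factor and others that were low or steady. Cdh17, the liver-intestine cadherin (chr4:11758147-11817895, GRCm38), had 5.27 and 4.09 CPM in Tyro3-OE cells, 28.7 and 34.3 CPM in Tyro3-KO cells, 0.177 and 0.180 CPM in resistant cells, and 22.9 and 22.8 CPM in parental cells. The groups did not overlap, and the resistant libraries, with 4 and 4 reads, stood just above the floor. Cdh17 was 4.88-fold lower in Tyro3-OE than in parental cells, with a log2 fold change of -2.29 (SE 0.13, adjusted p = 2.95e-20). It was 124-fold lower in resistant than in parental cells, with a log2 fold change of -6.96 (SE 0.24, adjusted p = 2.84e-28). In Tyro3-KO cells it was 170.4-fold higher than in resistant cells, at 7.41 (SE 0.22, adjusted p = 1.95e-30), and also above parental cells, at 0.46 (SE 0.10, adjusted p = 2.75e-04). Cdh17 thus fell in both Tyro3-OE and resistant cells against parental cells, and its mean in Tyro3-KO cells, 31.5 ± 3.97 CPM, lay above the 22.9 ± 0.0546 CPM of parental cells (SD, n = 2 each).

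Cdh1, E-cadherin, the main cadherin of epithelial adherens junctions, was scarce in all groups. It had 59 and 100 reads in Tyro3-OE libraries, 11 and 5 reads in Tyro3-KO libraries, 10 and 7 reads in resistant libraries, and 5 and 16 reads in parental libraries, which is 2.38 and 4.01 CPM in Tyro3-OE cells and 0.297 and 0.821 CPM in parental cells. Only the Tyro3-OE libraries stood apart from the other 3 groups, which overlapped each other. Cdh1 rose in Tyro3-OE against parental cells by 2.46 (SE 0.44, adjusted p = 3.24e-06). Leaving out 1 library at a time gave 1.95 to 3.40, the highest without parental replicate 2. In Tyro3-KO against resistant cells its value was -0.12 (SE 0.62, adjusted p = 0.871) and in resistant against parental cells -0.59 (SE 0.59, adjusted p = 0.372), neither of them called, and both turned positive when 1 library was left out (up to 0.19 without Tyro3-KO replicate 2, and 0.34 without parental replicate 2). In FPKM, the authors' length-scaled unit, Cdh1 stood at 0.682 in Tyro3-OE cells, where Cdh17 stood at 1.02 and Cdh24 at 6.59.

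Cdh24, a type II cadherin, was the most abundant cadherin per length in parental, Tyro3-OE and resistant cells. It had 24.0 and 23.0 CPM in Tyro3-OE cells, 19.7 and 22.8 CPM in Tyro3-KO cells, 23.7 and 27.2 CPM in resistant cells, and 30.5 and 27.9 CPM in parental cells. The values lay close together, with parental libraries highest and Tyro3-KO libraries lowest, and the Tyro3-OE and resistant libraries overlapped. Its log2 fold changes were -0.31 (SE 0.09, adjusted p = 0.00258) in Tyro3-OE against parental cells, -0.27 (SE 0.09, adjusted p = 0.00906) in Tyro3-KO against resistant cells and -0.20 (SE 0.09, adjusted p = 0.0494) in resistant against parental cells. Each of these small changes lost its call under some alternative: the first was lost with upper-quartile scaling (-0.17, adjusted p = 0.104), the second without Tyro3-KO replicate 1 (-0.15, 0.246) or resistant replicate 2 (-0.16, 0.197), and the third without resistant replicate 1 (-0.11, 0.395), without parental replicate 1 (-0.14, 0.255) and with DESeq2 (-0.20, 0.123). Cdh23, a long cadherin known from the tip links of hair cells, had 1.17 and 0.681 CPM in Tyro3-OE cells, 4.82 and 2.17 CPM in Tyro3-KO cells, 4.20 and 4.73 CPM in resistant cells and 1.54 and 2.16 CPM in parental cells. It rose in resistant against parental cells, at 1.26 (SE 0.30, adjusted p = 2.41e-04). It was called lower in Tyro3-OE than in parental cells, at -1.01 (SE 0.37, adjusted p = 0.0154), but not without Tyro3-OE replicate 2 (-0.68, 0.148) or parental replicate 2 (-0.74, 0.177). The 2 Tyro3-KO libraries lay apart and overlapped the resistant ones. The value against resistant cells, -0.32 (SE 0.26, adjusted p = 0.271), was called without Tyro3-KO replicate 1 (-1.03, 0.00508) and turned to 0.13 without Tyro3-KO replicate 2. The other 8 cadherins, Cdh3 and Cdh5 among them, had at most 5 reads in any library and were not tested.

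**Figure D2:**
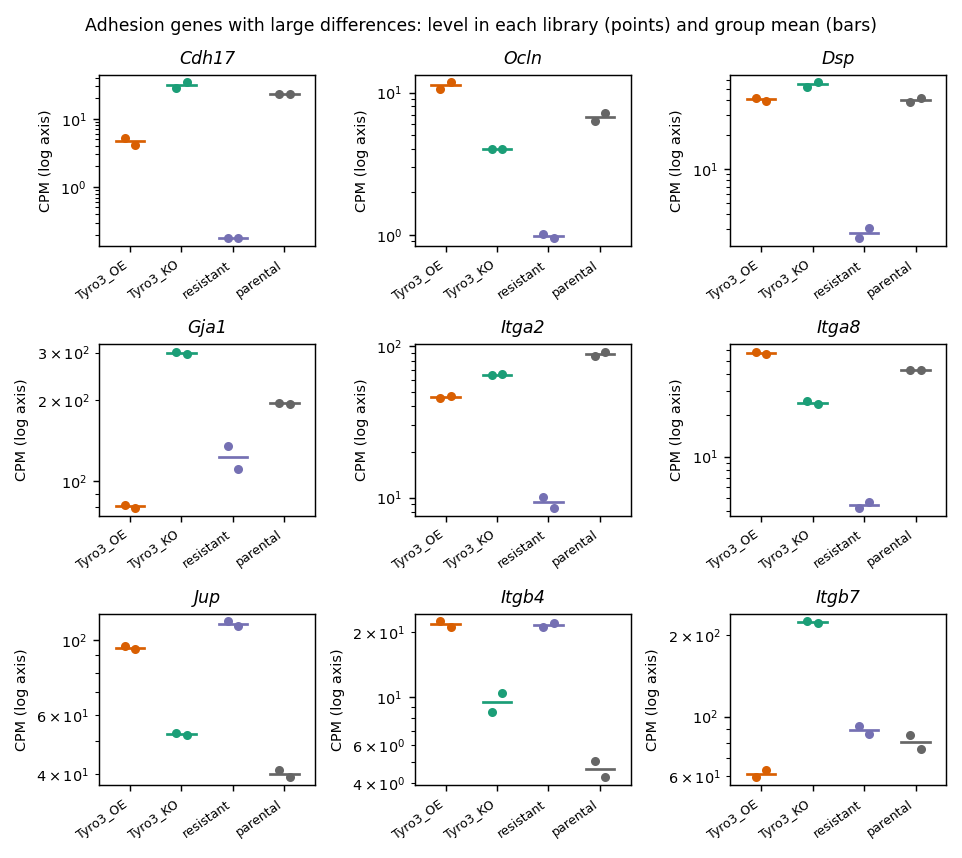
CPM of 9 members with large differences, on log axes that differ between panels, with a point for each library and a bar at the group mean (2 libraries per group). The resistant libraries are lowest in the panels of Cdh17, Ocln, Dsp, Itga2 and Itga8, the parental libraries in those of Jup and Itgb4, and the Tyro3-OE libraries in those of Gja1 and Itgb7.

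Among tight junction genes, Ocln and Epcam were lowest in resistant cells, while Cldn3 and Tjp1 were highest there. Ocln, occludin, a membrane-spanning strand protein (chr13:100496507-100552718), had 10.7 and 11.8 CPM in Tyro3-OE cells, 4.00 and 4.04 CPM in Tyro3-KO cells, 1.02 and 0.947 CPM in resistant cells, and 6.29 and 7.14 CPM in parental cells. All 4 groups were separate, with Tyro3-OE cells highest and resistant cells lowest. Ocln rose in Tyro3-OE against parental cells by 0.74 (SE 0.15, adjusted p = 3.75e-05), and it was 6.82-fold lower in resistant than in parental cells, at -2.77 (SE 0.23, adjusted p = 8.14e-15). In Tyro3-KO against resistant cells it rose by 2.03 (SE 0.24, adjusted p = 4.25e-10), yet was lower than in parental cells, at -0.74 (SE 0.18, adjusted p = 6.15e-04). Epcam, the epithelial cell adhesion molecule, had 23 and 24 reads in Tyro3-OE libraries, 34 and 26 in Tyro3-KO libraries, 3 and 5 in resistant libraries and 20 and 10 in parental libraries. It was thus near the floor in resistant cells and highest in Tyro3-KO cells, at 1.32 and 1.31 CPM. The change in Tyro3-KO against resistant cells was 2.84 (SE 0.59, adjusted p = 4.07e-05). In resistant against parental cells it was -2.19 (SE 0.65, adjusted p = 0.00257), and was no longer called without parental replicate 1 (-1.503, 0.101). Tyro3-OE and parental cells overlapped, at 0.17 (SE 0.49, adjusted p = 0.768), and that value turned to -0.33 without parental replicate 2.

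Claudins, the proteins that set the permeability of tight junctions, were represented by 4 tested members. Cldn3 had 31.0 and 28.6 CPM in Tyro3-OE cells, 19.9 and 19.9 CPM in Tyro3-KO cells, 45.5 and 45.9 CPM in resistant cells, and 35.3 and 33.3 CPM in parental cells. It was highest in resistant and lowest in Tyro3-KO libraries, with no overlap. Cldn3 fell in Tyro3-KO against resistant cells, at -1.20 (SE 0.08, adjusted p = 4.72e-18), and rose in resistant against parental cells by 0.42 (SE 0.08, adjusted p = 4.38e-06). The small fall in Tyro3-OE cells, -0.20 (SE 0.08, adjusted p = 0.0213), was not called with upper-quartile scaling (-0.06, 0.491), with DESeq2 (-0.21, 0.0568), without Tyro3-OE replicate 2 (-0.15, 0.190) or without parental replicate 1 (-0.17, 0.132). Cldn4, which lies beside Cldn3, was rare, with 45 and 39 reads in Tyro3-OE, 2 and 3 in Tyro3-KO, 13 and 13 in resistant and 5 and 9 in parental libraries. It rose in Tyro3-OE against parental cells by 2.12 (SE 0.52, adjusted p = 3.78e-04), and its fall in Tyro3-KO against resistant cells, -2.34 (SE 0.72, adjusted p = 0.00360), was not called without Tyro3-KO replicate 1 (-1.89, 0.0609). Cldn12 stayed between 77.8 and 102 CPM in all libraries, and fell in Tyro3-KO against resistant cells, at -0.33 (SE 0.05, adjusted p = 4.91e-07). Its rise in resistant against parental cells, 0.17 (SE 0.05, adjusted p = 0.00534), was not called without parental replicate 1 (0.08, 0.256). Cldn23 had 5 to 17 reads and was called in none of the 3 comparisons. The 12 other claudins, such as Cldn7 with at most 9 reads, and the scaffold gene Tjp3 were not tested.

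Tjp1, a ZO scaffold protein that ties claudins and occludin to actin, had 215 and 218 CPM in Tyro3-OE cells, 226 and 230.5 CPM in Tyro3-KO cells, 318 and 275 CPM in resistant cells, and 169 and 184 CPM in parental cells. It was highest in resistant cells and lowest in parental cells, and the Tyro3-OE and Tyro3-KO libraries lay between them. Tjp1 rose in Tyro3-OE against parental cells by 0.29 (SE 0.05, adjusted p = 9.71e-07) and in resistant against parental cells by 0.75 (SE 0.05, adjusted p = 2.69e-18), and it fell in Tyro3-KO against resistant cells, at -0.38 (SE 0.05, adjusted p = 1.18e-09). Other genes of the tight junction, from a list of 22 partners such as junctional adhesion molecules, cingulin and polarity proteins, had 15 tested. In Tyro3-OE against parental cells 11 of them were called higher and 1 lower, in Tyro3-KO against resistant cells 1 higher and 10 lower, and in resistant against parental cells 9 higher and 3 lower. Their median log2 fold changes were 0.22, -0.27 and 0.30 in that order. The medians and called shares of all genes given above stand beside these values and counts. Cxadr, the coxsackievirus and adenovirus receptor of the junction, rose in Tyro3-OE cells by 1.03 (SE 0.05, adjusted p = 2.33e-23), fell in Tyro3-KO cells, at -0.97 (SE 0.04, adjusted p = 1.09e-23), and rose in resistant cells by 1.45 (SE 0.05, adjusted p = 1.89e-29). Magi1, a scaffold, had log2 fold changes of 1.26 (SE 0.06), -0.58 (SE 0.06) and 0.92 (SE 0.06) in the same order of comparisons. In resistant against parental cells Cxadr and Magi1 thus changed in the direction opposite to Ocln, and in that of Tjp1. An antisense transcript shares 3.18% of the exon bases of Cldn3.

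Desmosome genes held members that moved in opposite directions. Dsp, desmoplakin, which binds the plaque to intermediate filaments (chr13:38151294-38198577), had 42.2 and 39.6 CPM in Tyro3-OE cells, 52.7 and 57.4 CPM in Tyro3-KO cells, 2.48 and 3.07 CPM in resistant cells, and 38.5 and 41.9 CPM in parental cells. The resistant libraries, with 56 and 68 reads, stood far below all others, and the Tyro3-OE and parental libraries overlapped. Dsp was 14.5-fold lower in resistant than in parental cells, at -3.86 (SE 0.12, adjusted p = 2.74e-30), and 19.8-fold higher in Tyro3-KO than in resistant cells, at 4.31 (SE 0.11, adjusted p = 6.66e-33). Tyro3-OE cells did not differ detectably from parental cells, at 0.02 (SE 0.08, adjusted p = 0.818), a value that turned to -0.02 without Tyro3-OE replicate 1 and -0.04 without parental replicate 1. In Tyro3-KO cells Dsp averaged 55.0 ± 3.33 CPM, against 40.2 ± 2.41 CPM in parental cells (SD, n = 2 each), a change of 0.45 (SE 0.07, adjusted p = 3.75e-06). A transcript annotated on the opposite strand covers 5.17% of its exon bases, and reads of the pair cannot be told apart without the strand.

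Jup, plakoglobin, which sits in both desmosomes and adherens junctions (chr11:100368958-100397763), had another pattern. It had 95.9 and 93.9 CPM in Tyro3-OE cells, 53.0 and 52.1 CPM in Tyro3-KO cells, 114 and 109.9 CPM in resistant cells, and 41.2 and 39.1 CPM in parental cells. The Tyro3-OE and resistant libraries were high, the Tyro3-KO and parental libraries low, and no groups overlapped. Jup rose in Tyro3-OE against parental cells by 1.24 (SE 0.06, adjusted p = 3.11e-23) and in resistant against parental cells by 1.48 (SE 0.06, adjusted p = 1.94e-26), and it fell in Tyro3-KO against resistant cells, at -1.09 (SE 0.05, adjusted p = 1.50e-22). Dsp and Jup, which bind each other in the desmosomal plaque, therefore differed in opposite directions between Tyro3-KO and resistant cells and between resistant and parental cells. Per length, Jup made up 45.0% of the summed desmosome FPKM in resistant cells and 17.5% in parental cells, and Dsp 0.744% in resistant cells and 11.7% in parental cells.

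Plakophilins, armadillo proteins of the plaque, did not share 1 pattern. Pkp2 had 3.66 and 5.01 CPM in Tyro3-OE cells, 11.1 and 11.5 CPM in Tyro3-KO cells, 2.96 and 1.58 CPM in resistant cells, and 5.94 and 4.83 CPM in parental cells. Tyro3-KO libraries were highest and resistant libraries lowest, and Tyro3-OE and parental libraries overlapped. It rose in Tyro3-KO against resistant cells by 2.31 (SE 0.20, adjusted p = 3.62e-14) and fell in resistant against parental cells, at -1.23 (SE 0.23, adjusted p = 5.00e-06), while Tyro3-OE against parental cells, at -0.30 (SE 0.20, adjusted p = 0.178), was called only without Tyro3-OE replicate 2 (-0.55, 0.0394). Pkp3 had 32.0 and 33.9 CPM in Tyro3-OE cells, 44.4 and 42.1 CPM in Tyro3-KO cells, 36.5 and 38.3 CPM in resistant cells, and 21.1 and 21.7 CPM in parental cells. Parental libraries were the lowest and Tyro3-KO libraries the highest, with no overlap. Pkp3 rose in Tyro3-OE cells by 0.62 (SE 0.08, adjusted p = 6.74e-09) and in resistant cells by 0.81 (SE 0.08, adjusted p = 4.96e-12), both against parental cells. In Tyro3-KO cells it was higher than in resistant cells by 0.21 (SE 0.07, adjusted p = 0.00915), a difference not called with upper-quartile scaling (0.06, 0.454), without Tyro3-KO replicate 1 (0.18, 0.0896) or without resistant replicate 1 (0.18, 0.0699). Pkp4, which also occurs in adherens junctions, had 78.4 and 84.0 CPM in Tyro3-OE cells, 106 and 104 CPM in Tyro3-KO cells, 57.9 and 57.6 CPM in resistant cells, and 102 and 104 CPM in parental cells. Its Tyro3-KO and parental libraries overlapped at the top, and it fell in resistant cells, at -0.84 (SE 0.05, adjusted p = 1.88e-18) against parental cells, and rose in Tyro3-KO against resistant cells by 0.86 (SE 0.05, adjusted p = 2.94e-19). In Tyro3-OE against parental cells it fell, at -0.34 (SE 0.05, adjusted p = 9.38e-08).

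Dsc2, desmocollin, the 1 desmosomal cadherin tested, was rare. It had 47 and 53 reads in Tyro3-OE libraries, 4 and 1 in Tyro3-KO libraries, 0 and 0 in resistant libraries and 19 and 15 in parental libraries. The resistant libraries had no read, so with a floor of 3 reads per library the level in resistant cells was at least 7.08-fold lower than in parental cells and at least 14.99-fold lower than in Tyro3-OE cells. Tyro3-KO cells stood at or near that floor too, and no fold is given against resistant cells. The call counted for it there (adjusted p = 0.0323) rests on 5 reads in Tyro3-KO cells and was lost without Tyro3-KO replicate 1 (adjusted p = 0.218), resistant replicate 1 (0.109) or resistant replicate 2 (0.109). Its rise in Tyro3-OE against parental cells, 1.09 (SE 0.45, adjusted p = 0.0302), was not called with DESeq2 (1.08, 0.0988) nor without Tyro3-OE replicate 1 (1.17, 0.109), Tyro3-OE replicate 2 (0.99, 0.186) or parental replicate 2 (0.82, 0.208). Dsc2 was the 1 tested desmosome member called lower in Tyro3-KO than in parental cells, at -3.05 (SE 0.69, adjusted p = 4.06e-04). Pkp1 had at most 6 reads and was not tested. Of 8 other genes of the desmosome and its filaments, 7 were tested. In Tyro3-KO against resistant cells, where 37.1% of all genes were called higher and 35.6% lower, 5 of the 7 were called higher and 1 lower. They include Ppl, periplakin, at 1.11 (SE 0.08, adjusted p = 3.77e-17), and Perp, a desmosomal membrane protein, at 2.85 (SE 0.45, adjusted p = 2.46e-07), while Evpl, envoplakin, fell, at -1.65 (SE 0.34, adjusted p = 3.71e-05). The list also holds Krt8 and Krt18. In resistant against parental cells 4 of the 7 were called lower, where 36.1% of all genes were. In Tyro3-OE against parental cells 4 were higher and 3 lower, beside 32.5% and 33.7% of all genes. The medians of the 7 were 0.26 in Tyro3-OE against parental cells, 1.11 in Tyro3-KO against resistant cells and -0.40 in resistant against parental cells.

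Gap junctions are represented here by Gja1, the most widely expressed connexin, a channel protein found in many tissues. It had 81.7 and 79.7 CPM in Tyro3-OE cells, 302 and 297 CPM in Tyro3-KO cells, 135 and 111 CPM in resistant cells, and 195 and 194 CPM in parental cells. Tyro3-KO libraries were the highest and Tyro3-OE libraries the lowest, with no overlap. Gja1 fell in Tyro3-OE against parental cells, at -1.27 (SE 0.05, adjusted p = 8.79e-25), and in resistant against parental cells, at -0.66 (SE 0.05, adjusted p = 1.53e-15), and it rose in Tyro3-KO against resistant cells by 1.28 (SE 0.05, adjusted p = 2.76e-26). In Tyro3-KO cells it averaged 299.5 ± 3.10 CPM, against 195 ± 1.09 CPM in parental cells (SD, n = 2 each), a change of 0.62 (SE 0.05, adjusted p = 2.97e-14). Gja4, Gja5, Gja6 and Gjb1 had at most 5 reads in any library and were not tested.

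**Figure D3:**
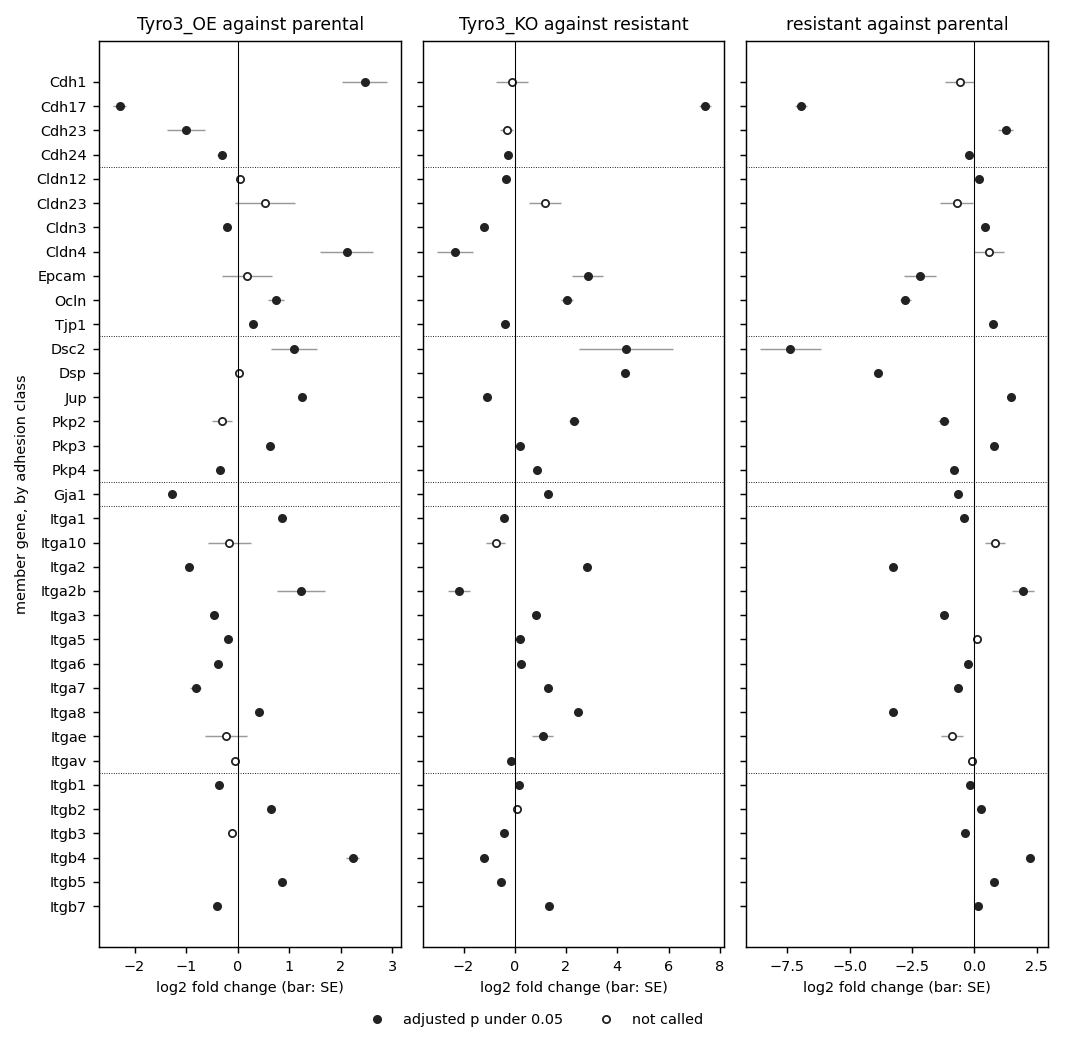
Log2 fold changes of 35 of the 38 tested members in Tyro3-OE against parental cells (left), Tyro3-KO against resistant cells (middle) and resistant against parental cells (right), with bars of 1 SE, on axes of different range. Filled points were called and open points were not. Gja1 and Itga3 lie left of 0 in the left and right panels and right of 0 in the middle one, and the values of Dsc2 in the middle and right panels rest on a group with 0 reads.

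Integrin alpha subunits were dominated by 1 gene. Itga3, a laminin-binding subunit that pairs with Itgb1, held 67.3% of the summed alpha-subunit FPKM in Tyro3-OE cells, 66.3% in Tyro3-KO cells, 57.5% in resistant cells and 70.6% in parental cells. It had 1063 and 1075 CPM in Tyro3-OE cells, 1141 and 1143 CPM in Tyro3-KO cells, 642 and 629.9 CPM in resistant cells, and 1459 and 1475 CPM in parental cells. The groups were separate, with resistant cells lowest. Itga3 fell in Tyro3-OE against parental cells, at -0.46 (SE 0.04, adjusted p = 8.25e-14), fell in resistant against parental cells, at -1.21 (SE 0.04, adjusted p = 1.02e-28), and rose in Tyro3-KO against resistant cells by 0.84 (SE 0.04, adjusted p = 5.37e-23). The other tested laminin-binding subunits, Itga6 and Itga7, changed in the same directions. Itga6, next in level at 32.2 to 41.5 FPKM over the groups, had log2 fold changes of -0.37 (SE 0.04) in Tyro3-OE against parental cells, 0.24 (SE 0.04) in Tyro3-KO against resistant cells and -0.25 (SE 0.04) in resistant against parental cells. Itga7, known as a muscle laminin receptor, had 12.0 and 12.7 CPM in Tyro3-OE cells, 33.4 and 34.2 CPM in Tyro3-KO cells, 12.9 and 14.7 CPM in resistant cells, and 23.3 and 20.3 CPM in parental cells. Its Tyro3-KO libraries were the highest, and Tyro3-OE and resistant libraries the lowest. Itga7 rose in Tyro3-KO against resistant cells by 1.29 (SE 0.09, adjusted p = 2.23e-16), and fell in Tyro3-OE against parental cells, at -0.82 (SE 0.10, adjusted p = 2.04e-09), and in resistant against parental cells, at -0.66 (SE 0.10, adjusted p = 2.36e-07).

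The collagen-binding subunits Itga1 and Itga2, which lie close together on chromosome 13, differed from each other. Itga2 (chr13:114833081-114932100) had 45.5 and 46.8 CPM in Tyro3-OE cells, 64.7 and 65.2 CPM in Tyro3-KO cells, 10.1 and 8.57 CPM in resistant cells, and 86.4 and 91.8 CPM in parental cells. Parental libraries were the highest and resistant libraries the lowest, with all groups separate. Itga2 was 9.55-fold lower in resistant than in parental cells, at -3.26 (SE 0.08, adjusted p = 8.76e-34), 6.96-fold higher in Tyro3-KO than in resistant cells, at 2.80 (SE 0.08, adjusted p = 4.67e-31), and 1.93-fold lower in Tyro3-OE than in parental cells, at -0.95 (SE 0.06, adjusted p = 1.09e-17). Itga1 (chr13:114953096-115101964) had 77.0 and 75.7 CPM in Tyro3-OE cells, 22.8 and 24.7 CPM in Tyro3-KO cells, 32.2 and 31.0 CPM in resistant cells, and 40.3 and 43.7 CPM in parental cells. Here Tyro3-OE libraries were the highest and Tyro3-KO libraries the lowest. Itga1 rose in Tyro3-OE against parental cells by 0.86 (SE 0.07, adjusted p = 2.05e-15), fell in Tyro3-KO against resistant cells, at -0.42 (SE 0.08, adjusted p = 5.75e-06), and fell in resistant against parental cells, at -0.41 (SE 0.07, adjusted p = 2.94e-06). Per length, Itga2 stood at 12.1 FPKM and Itga1 at 2.19 FPKM in parental cells, while in resistant cells Itga2 stood at 1.28 FPKM and Itga1 at 1.66 FPKM. A gene annotated on the same strand, Gm49395, covers 3.68% of the exon bases of Itga1.

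Subunits that bind RGD proteins ranged from steady to strongly changed. Itga8, whose known ligand in kidney development is nephronectin (chr2:12106632-12301922), had 57.9 and 55.5 CPM in Tyro3-OE cells, 25.5 and 24.1 CPM in Tyro3-KO cells, 4.25 and 4.64 CPM in resistant cells, and 42.5 and 42.6 CPM in parental cells. Tyro3-OE libraries were highest and resistant libraries lowest, without overlap. Itga8 was 9.57-fold lower in resistant than in parental cells, at -3.26 (SE 0.10, adjusted p = 1.15e-29), and rose in Tyro3-KO against resistant cells by 2.48 (SE 0.11, adjusted p = 2.32e-24) and in Tyro3-OE against parental cells by 0.41 (SE 0.07, adjusted p = 2.04e-06). Its mean in Tyro3-KO cells, 24.8 ± 0.996 CPM, remained below the 42.6 ± 0.0642 CPM of parental cells (SD, n = 2 each), at -0.78 (SE 0.08, adjusted p = 3.61e-11). An antisense RNA covers 5.05% of its exon bases, so its reads share the limit named for Dsp. Itgav, the shared subunit of the vitronectin receptors, had 264 and 258 CPM in Tyro3-OE cells, 234 and 232 CPM in Tyro3-KO cells, 256 and 254 CPM in resistant cells, and 267 and 271 CPM in parental cells, which is a narrow range over all libraries (a non-coding transcript shares 5.90% of its exon bases). Its values were -0.05 (SE 0.04, adjusted p = 0.307) in Tyro3-OE against parental cells and -0.08 (SE 0.04, adjusted p = 0.0810) in resistant against parental cells, not called, and both turned positive with upper-quartile scaling (0.09 and 0.09, adjusted p = 0.0191 and 0.0326). The fall in Tyro3-KO against resistant cells, -0.13 (SE 0.04, adjusted p = 0.00291), was not called without Tyro3-KO replicate 2 (-0.11, 0.0751). Itga5, the fibronectin receptor subunit, had 66.2 and 65.1 CPM in Tyro3-OE cells, 93.2 and 91.9 CPM in Tyro3-KO cells, 79.2 and 82.0 CPM in resistant cells and 78.2 and 72.0 CPM in parental cells. Its called changes were small, -0.19 (SE 0.06, adjusted p = 0.00228) in Tyro3-OE against parental cells and 0.20 (SE 0.05, adjusted p = 7.34e-04) in Tyro3-KO against resistant cells, and neither was called with upper-quartile scaling (-0.05, 0.413, and 0.05, 0.370) nor the first without parental replicate 1 (-0.14, 0.0681).

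The remaining tested alpha subunits were close to the detection limit. Itga2b, the platelet fibrinogen receptor subunit, had 30 and 41 reads in Tyro3-OE, 6 and 17 in Tyro3-KO, 50 and 55 in resistant and 11 and 11 in parental libraries. It fell in Tyro3-KO against resistant cells, at -2.17 (SE 0.44, adjusted p = 2.36e-05), and rose in resistant against parental cells by 1.94 (SE 0.44, adjusted p = 1.45e-04), while its rise in Tyro3-OE cells, 1.23 (SE 0.46, adjusted p = 0.0188), was not called without Tyro3-OE replicate 2 (0.98, 0.145), parental replicate 1 (1.32, 0.0510) or parental replicate 2 (1.11, 0.104). Itgae, which pairs with Itgb7 and binds E-cadherin, had 26 and 29 reads in Tyro3-OE, 38 and 29 in Tyro3-KO, 14 and 17 in resistant and 22 and 25 in parental libraries. Its rise in Tyro3-KO against resistant cells, 1.08 (SE 0.41, adjusted p = 0.0185), was not called without Tyro3-KO replicate 1 (1.08, 0.0616) or resistant replicate 1 (0.94, 0.106). Itga10, a collagen-binding subunit with 18 to 51 reads, was called in none of the 3 comparisons, and 33.5% of its exon bases are shared with another gene on the same strand. In resistant against parental cells, Itga10 was called with upper-quartile scaling (0.98, 0.0253), in the fit of 4 libraries (0.83, 0.0470) and without resistant replicate 1 (1.05, 0.0445), and in Tyro3-KO against resistant cells with upper-quartile scaling (-0.90, 0.0312). Itga4, Itga9, Itga11, Itgam and Itgax had at most 11 reads in any library and were not tested.

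Beta subunits fell into those that tracked Jup and those that did not. Itgb4, which pairs with Itga6 in hemidesmosomes (chr11:115974709-116008412), had 22.4 and 21.2 CPM in Tyro3-OE cells, 8.55 and 10.5 CPM in Tyro3-KO cells, 21.2 and 22.1 CPM in resistant cells, and 5.05 and 4.26 CPM in parental cells. Tyro3-OE and resistant libraries overlapped at the top, and parental libraries were the lowest. Itgb4 was 4.70-fold higher in Tyro3-OE than in parental cells, at 2.23 (SE 0.13, adjusted p = 1.11e-19), and 4.67-fold higher in resistant than in parental cells, at 2.22 (SE 0.13, adjusted p = 1.09e-19). In Tyro3-KO against resistant cells it fell, at -1.20 (SE 0.11, adjusted p = 3.12e-13), but remained above parental cells by 1.02 (SE 0.15, adjusted p = 2.12e-07). A non-coding RNA on the other strand covers 7.66% of its exon bases. Itgb5, a partner of Itgav (chr16:33829665-33949338), had 196 and 195 CPM in Tyro3-OE cells, 130.4 and 126 CPM in Tyro3-KO cells, 186 and 185 CPM in resistant cells, and 111 and 105 CPM in parental cells. The order of the groups was similar, with high Tyro3-OE and resistant libraries and low parental libraries. Itgb5 rose in Tyro3-OE cells by 0.86 (SE 0.04, adjusted p = 2.01e-21) and in resistant cells by 0.78 (SE 0.04, adjusted p = 4.52e-20), both against parental cells, and fell in Tyro3-KO against resistant cells, at -0.54 (SE 0.04, adjusted p = 4.58e-15). Between resistant and Tyro3-OE cells, Itgb4 and Itgb5 had differences of -0.01 (SE 0.10, adjusted p = 0.940) and -0.08 (SE 0.04, adjusted p = 0.113), not called.

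Itgb1, the beta subunit shared by the collagen, laminin and fibronectin receptors, was the most abundant per length, at 108 FPKM in Tyro3-OE cells, 138 FPKM in Tyro3-KO cells, 124 FPKM in resistant cells and 138 FPKM in parental cells. It had 449 and 455 CPM in Tyro3-OE cells, 584 and 571 CPM in Tyro3-KO cells, 540.3 and 495 CPM in resistant cells, and 573 and 590.0 CPM in parental cells. Tyro3-KO and parental libraries overlapped at the top, the resistant libraries lay below them, and the Tyro3-OE libraries were the lowest. Itgb1 fell in Tyro3-OE against parental cells, at -0.36 (SE 0.04, adjusted p = 1.86e-10). The value in Tyro3-KO against resistant cells, 0.16 (SE 0.04, adjusted p = 7.80e-04), and that in resistant against parental cells, -0.17 (SE 0.04, adjusted p = 4.36e-04), were both no longer called with upper-quartile scaling (0.01, 0.840, and -0.01, 0.897). Itgb7, known from the homing receptors of lymphocytes, had 59.6 and 63.3 CPM in Tyro3-OE cells, 225 and 222 CPM in Tyro3-KO cells, 92.6 and 86.3 CPM in resistant cells, and 85.8 and 75.9 CPM in parental cells. The Tyro3-KO libraries stood far above all others. Itgb7 rose in Tyro3-KO against resistant cells by 1.32 (SE 0.05, adjusted p = 5.11e-27) and against parental cells by 1.47 (SE 0.05, adjusted p = 1.09e-26), and fell in Tyro3-OE against parental cells, at -0.39 (SE 0.06, adjusted p = 3.94e-08). Resistant against parental cells gave 0.15 (SE 0.05, adjusted p = 0.0136), not called without resistant replicate 1 (0.09, 0.200) or parental replicate 2 (0.05, 0.479). Per length, its share of the summed beta-subunit FPKM was 27.0% in Tyro3-KO cells and 12.7% in resistant cells.

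Itgb3, the other main partner of Itgav, had 52.0 and 49.3 CPM in Tyro3-OE cells, 32.5 and 30.9 CPM in Tyro3-KO cells, 43.9 and 41.8 CPM in resistant cells, and 57.5 and 52.5 CPM in parental cells. Tyro3-KO libraries were the lowest, and it fell there against resistant cells, at -0.43 (SE 0.07, adjusted p = 8.81e-07), as it did in resistant against parental cells, at -0.36 (SE 0.07, adjusted p = 1.15e-05). In Tyro3-OE against parental cells the value was -0.12 (SE 0.07, adjusted p = 0.118), which turned to 0.02 with upper-quartile scaling and was called without parental replicate 2 (-0.19, 0.0433). Itgb2, the beta subunit of leukocyte integrins, had 128 and 130.2 CPM in Tyro3-OE cells, 104 and 107 CPM in Tyro3-KO cells, 102 and 95.4 CPM in resistant cells, and 80.4 and 84.2 CPM in parental cells. It rose in Tyro3-OE against parental cells by 0.65 (SE 0.05, adjusted p = 8.65e-16) and in resistant against parental cells by 0.26 (SE 0.05, adjusted p = 1.45e-05). Tyro3-OE libraries were the highest and parental libraries the lowest, with no overlap. Tyro3-KO against resistant cells gave 0.10 (SE 0.05, adjusted p = 0.0714), which turned to -0.05 with upper-quartile scaling and was called without resistant replicate 1 (0.15, 0.0178). Of 12 leukocyte and macrophage markers, 11 were listed and 4 tested, with sums of 42.2 to 44.8 CPM in Tyro3-OE cells, 60.6 to 65.9 CPM in Tyro3-KO cells, 28.6 to 32.6 CPM in resistant cells and 58.6 to 64.3 CPM in parental cells, most of it Cd14 and Cd68. The defining marker Ptprc had at most 3 reads in a library and Adgre1 at most 2, and the part of these markers in the level of Itgb2 was not tested. Itgb6 had 2 reads in all and was not tested.

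**Figure D4:**
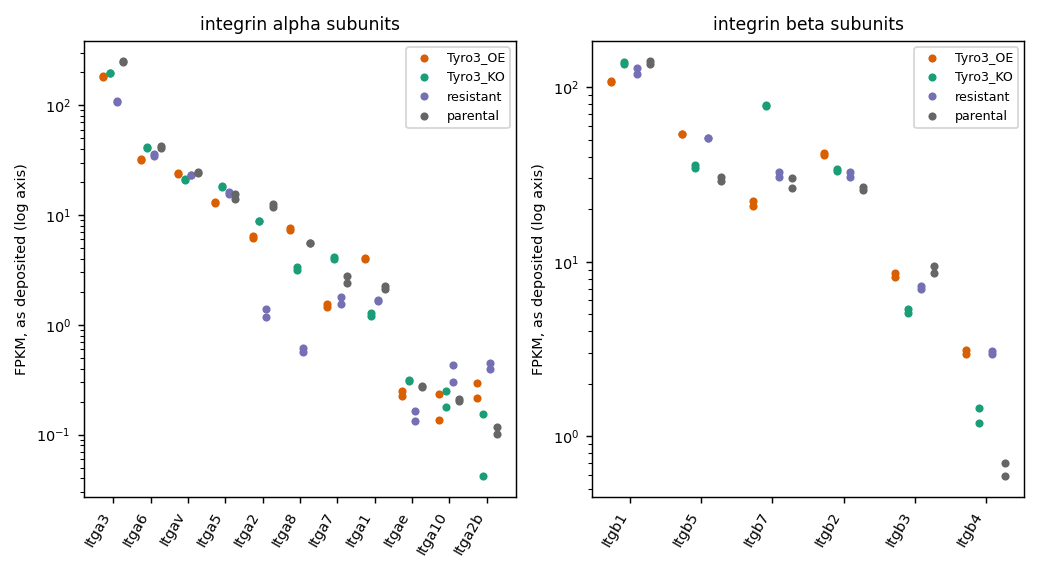
FPKM of the tested integrin alpha (left) and beta (right) subunits, as the authors deposited them, on log axes, with 1 point per library and genes ordered by level. Itga3 and Itgb1 lie at the top in all 4 groups, Itga2 and Itga8 have their lowest points in resistant cells, Itgb4 in parental cells, and Itgb7 its highest in Tyro3-KO cells.

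Proteins that act with integrins moved in part with the alpha subunits. For scale, Tyro3-OE against parental cells had 32.5% of the 14513 genes up and 33.7% down at the same threshold. Tyro3-KO against resistant cells had 37.1% up and 35.6% down, and resistant against parental cells 35.1% up and 36.1% down. Being called is thus no result about the partner lists below, and no list was tested against those shares. Of 31 adhesion partners such as talin, vinculin and kindlin, 30 were tested. In Tyro3-OE against parental cells 7 were called higher and 16 lower (median -0.15), in Tyro3-KO against resistant cells 18 higher and 6 lower (median 0.25), and in resistant against parental cells 8 higher and 17 lower (median -0.15). Vcl, vinculin, changed by -0.61 (SE 0.05, adjusted p = 8.46e-16) in Tyro3-OE against parental cells, by 0.77 (SE 0.04, adjusted p = 8.10e-20) in Tyro3-KO against resistant cells and by -0.36 (SE 0.05, adjusted p = 2.50e-09) in resistant against parental cells. Ilk, the integrin-linked kinase, changed by -0.87 (SE 0.27), 1.21 (SE 0.29) and -1.49 (SE 0.29) in the same order. Of 7 hemidesmosome genes, all tested, 2 were called higher and 1 lower in Tyro3-OE against parental cells, 5 higher and 1 lower in Tyro3-KO against resistant cells, and 1 higher and 3 lower in resistant against parental cells, with medians of 0.04, 1.81 and -0.47. Plec, plectin, which joins Itgb4 to keratin filaments, rose in Tyro3-KO against resistant cells by 1.81 (SE 0.05, adjusted p = 3.13e-32), and Lamb3, a chain of the laminin that this integrin binds, by 4.13 (SE 0.35, adjusted p = 2.22e-14). In resistant against parental cells Plec fell, at -1.42 (SE 0.05, adjusted p = 2.96e-28), and Lamb3 fell, at -2.62 (SE 0.42, adjusted p = 4.01e-07), whereas Itgb4 rose. Of 9 tested adherens junction partners, 3 were higher and 5 lower in Tyro3-OE against parental cells, 4 higher and 2 lower in Tyro3-KO against resistant cells, and 3 higher and 4 lower in resistant against parental cells. Plekha7, which tethers microtubules to that junction, had -0.56 (SE 0.08), 1.79 (SE 0.08) and -1.30 (SE 0.09) in these comparisons, and Ctnnb1, beta-catenin, had 0.10 (SE 0.04), 0.48 (SE 0.04) and, not called, 0.00 (SE 0.04). Of 4 tested gap junction partners, connexins of other groups and pannexins, 1 was called higher and 0 lower in Tyro3-OE against parental cells. In Tyro3-KO against resistant cells 3 were higher and 0 lower, and in resistant against parental cells 1 higher and 2 lower. The medians of the 4 were -0.02, 0.93 and -0.73 in that order.

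Tyro3-OE against parental cells and Tyro3-KO against resistant cells share no library, and so could be set side by side. Of the 26 members called in both, 20 had opposite directions, 13 lower in Tyro3-OE and higher in Tyro3-KO cells and 7 higher in Tyro3-OE and lower in Tyro3-KO cells, and 6 had the same direction. The 20 are 69% of the members called in Tyro3-OE cells and 60.6% of those called in Tyro3-KO cells, where the same shares over all genes were 73.1% and 66.6%. Of those called in both, 76.9% of the members and 88.1% of all genes had opposite directions. Gja1, Jup, Itgb4, Itgb5, Itga2, Itga3 and Itgb7 are among the 20, while Ocln, Itga8, Dsc2 and Pkp3 were called higher in both comparisons, and Cdh24 and Cldn3 lower in both. A test of the difference in the same fit took the log2 change of Tyro3-OE against parental cells minus that of resistant against Tyro3-KO cells. It called 28 of 38 members, 21 above 0 and 7 below, or 73.7%, where 46.7% of all genes were called (24.7% above 0 and 22% below). Gja1 and Jup had differences of 0.01 (SE 0.07, adjusted p = 0.903) and 0.15 (SE 0.08, adjusted p = 0.107), not called in that test, although the difference for Gja1 was called without resistant replicate 1 (0.16, 0.0311).

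**Figure D5:**
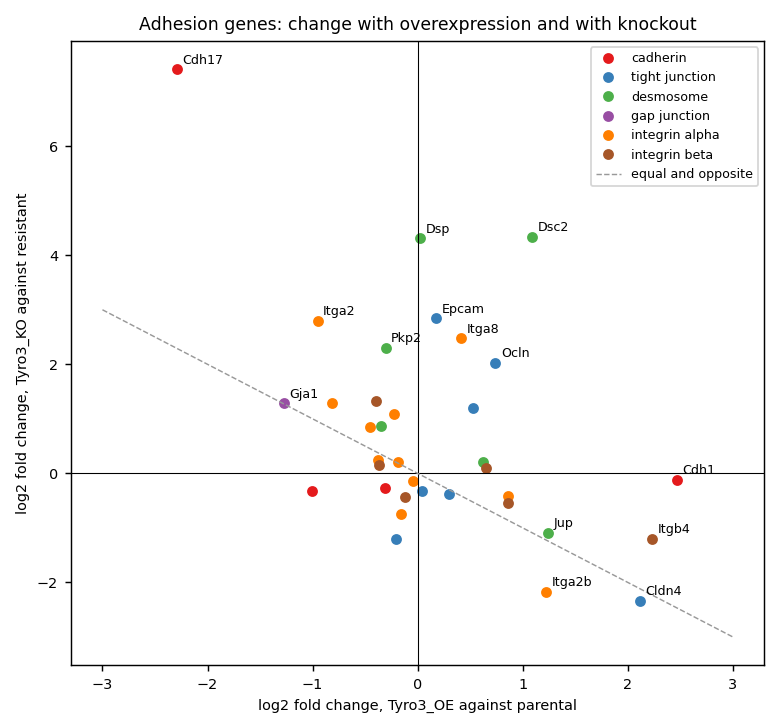
Log2 fold change in Tyro3-KO against resistant cells (vertical) and in Tyro3-OE against parental cells (horizontal) of 35 of the 38 tested members, coloured by adhesion class, with a dashed line where both would be equal and opposite. Gja1, Jup and Cldn4 lie near the line, Cdh17 far above it, and Dsp near 0 on the horizontal axis, while the vertical value of Dsc2 rests on 0 reads in resistant cells.

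Tyro3-KO cells and parental cells, compared directly, differed in 28 of 38 members, 16 higher and 12 lower in Tyro3-KO cells, or 73.7%, where 36.3% of all genes were called (18.1% higher and 18.3% lower). Most of these were small. A change of 1 or more in log2 units was called for 5 members and for 4.33% of all genes: Pkp2, Pkp3, Itgb4 and Itgb7 were higher in Tyro3-KO cells, and Dsc2 lower. Thus Cdh17, Dsp, Itga2 and Itga8, which were 9.55 to 124-fold lower in resistant than in parental cells, lay within 1 unit of parental cells on the log2 scale in Tyro3-KO cells, at 0.46, 0.45, -0.46 and -0.78. The comparisons share the parental or the resistant libraries, and their values are given side by side only. Resistant against Tyro3-OE cells gave 30 called members, 12 higher and 18 lower, or 78.9%, where 55.3% of all genes were called (27% higher and 28.3% lower). Itga8 had -3.67 (SE 0.10, adjusted p = 1.74e-31), Dsp -3.88 (SE 0.12, adjusted p = 8.20e-30), Ocln -3.51 (SE 0.21, adjusted p = 3.11e-19) and Cdh1 -3.05 (SE 0.45, adjusted p = 1.38e-07) there.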

How the data were processed

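Total RNA of 4T1 cells was sequenced in 8 libraries, grouped in pairs by labelled phenotype and genotype. The authors deposited 3 tables, each of 4 libraries. Per the file headers they hold raw read counts per gene, which are the values tested here, and FPKM, which the authors scaled by gene length and depth and which served only to compare levels between genes. The other deposited values are a signal, each count divided by 1 size factor per library within its table, and were not used. CASAVA, STAR and DESeq2 and the builds GRCm38 and mm10 are named in the submitters' processing notes. Which program counted reads, and whether it used strand, is not given in the sources used here. A library in 2 tables had equal counts and FPKM in both, and joining the tables by identifier gave 24677 genes, with 20265 present in each of the 3. A gene unlisted in a table was set to 0 there.

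Tests used edgeR 4.0.16 in R 4.3.3 (TMM scaling, filterByExpr, glmQLFit and glmQLFTest) with all 8 libraries and 1 mean per group. P-values were adjusted by Benjamini-Hochberg over 14513 genes, and each standard error (SE) was computed as the absolute log2 fold change over the root of F. The fitted biological variation was 3.51% (common dispersion 0.00123). The 2 libraries of a group differed by more than sampling noise, with a chi-square per degree of freedom of 2.02 to 5.68, so none was counted as a repeat. The procedure was tested on simulated counts. The members, gene lists and naming rule were chosen with earlier results of these data known. Named in full are Cdh1, Epcam, Jup, Gja1, Itgav and Itgb1 and, per class, comparison and direction, up to 2 called members with the largest change, at least 5 CPM and groups that do not overlap, which gave 26, of which 23 are described. Other tested members are given outside that rule, and a few members are not reported here, although counts include them. Gene positions are those of the files (GRCm38), and promoters come from RefSeq (GRCm38.p6). Alternatives were 2 other scalings, 2 other count filters, fits of 4 libraries, a change of at least 1 (log2), DESeq2 1.42.0, a replicate block and leaving out each library.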

Additional observations from a re-analysis of the deposited data

Results flagged for a closer look

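For 10 of the 23 fully described members, the change from lower to higher Tyro3 differed between the parental and the resistant background by at least 1 on the log2 scale, in a test of that difference in the edgeR fit over all genes. Such a difference was called for 14 of the 38 tested members and for 11.4% of all 14513 genes. Most of the 23 were named for large changes in the comparisons that enter this difference. Their count is therefore no result about these genes. The difference is the change of Tyro3-OE against parental cells minus the change of resistant against Tyro3-KO cells, so a positive value means that the resistant background had the lower or more negative change. It was largest for Cdh17, at 5.12 (adjusted p = 7.24e-17), whose change was -2.29 in Tyro3-OE against parental cells and whose value in Tyro3-KO against resistant cells was 7.41. Dsp had 4.33 (adjusted p = 4.16e-28). Among tight junction genes, Epcam had 3.02 (adjusted p = 0.00127), Ocln 2.77 (adjusted p = 3.41e-11) and Cldn3 -1.40 (adjusted p = 1.39e-14), the 1 negative value. Itga8 had 2.90 (adjusted p = 9.66e-23), Itga2 1.85 (adjusted p = 3.26e-19), Itgb4 1.03 (adjusted p = 3.91e-06) and Pkp2 2.003 (adjusted p = 9.69e-08). Cdh1 had 2.35 (adjusted p = 0.0117), which was not called with no filter on low counts (2.38, 0.0812), without Tyro3-OE replicate 2 (1.92, 0.0936), without Tyro3-KO replicate 1 (1.89, 0.151) or without parental replicate 1 (1.83, 0.0598). Ocln and Itga8 were higher in Tyro3-OE than in parental cells, and lower in resistant than in Tyro3-KO cells.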

How the results depend on the processing

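The count of called members ranged from 25 to 29 in Tyro3-OE against parental cells, 29 to 33 in Tyro3-KO against resistant cells, 29 to 32 in resistant against parental cells, 26 to 28 in Tyro3-KO against parental cells, 25 to 31 in resistant against Tyro3-OE cells, and 25 to 29 for the difference between backgrounds, over the alternatives other than a minimum change. Requiring a change of at least 1 on the log2 scale left 11, 19, 16, 5, 14 and 14 members in the same order. Of 1030 values of the 23 fully described members in the 3 main comparisons under alternatives, 990 kept their direction and their side of the threshold. With the sign kept, 27 lost their call and 3 gained one. Another 10 changed sign, among them Itgav with upper-quartile scaling in Tyro3-OE and in resistant against parental cells, which also gained a call (adjusted p = 0.0191 and 0.0326 in edgeR). Of the 69 values 51 never changed either. The sign changes were all of small or weakly counted values. With upper-quartile scaling Itgav moved to 0.095 in Tyro3-OE and 0.085 in resistant cells and Itgb3 to 0.022 in Tyro3-OE cells, all against parental cells, and with at least 50 reads in 2 libraries Itgav moved to 0.00067 in Tyro3-OE cells. Leaving out 1 library at a time, Dsp in Tyro3-OE against parental cells ranged from -0.043 to 0.080, Epcam there from -0.33 to 0.87, Cdh1 in Tyro3-KO against resistant cells from -0.57 to 0.19, and Cdh1 in resistant against parental cells from -1.11 to 0.34. Where that left 1 library in a group, the lone library was assumed to vary like those of the other groups. The labels do not say that replicate numbers mark a shared batch. Deviations of same-numbered libraries correlated at -0.0014 to 0.034, so no shared shift was seen, but this cannot settle how the libraries were handled. With a replicate block 29, 33, 30, 28, 30 and 28 members were called, and the 1 member call lost among these comparisons was Cdh24 in resistant against parental cells (adjusted p = 0.0504). Depth limits Cdh1, Epcam, Cldn4, Cldn23, Dsc2, Itga2b, Itga10 and Itgae, at a few to about 100 reads in a library. The causes of these shifts were not tested.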

Other observations

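Members that lie next to each other on a chromosome did not always change together. Itga2 and Itga1 are 20995 bases apart on chromosome 13, with Pelo and Gm49395 between them, and had -0.95 and 0.86 in Tyro3-OE against parental cells and 2.80 and -0.42 in Tyro3-KO against resistant cells. Cldn4 and Cldn3 are 39279 bases apart on chromosome 5, and had 2.12 and -0.20 in Tyro3-OE against parental cells, but -2.34 and -1.20 in Tyro3-KO against resistant cells. These pairs were chosen after their values were seen.

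Some beta subunits were abundant while their usual alpha partners were scarce. Itgb2 stood at 41.4 FPKM in Tyro3-OE cells, 33.7 FPKM in Tyro3-KO cells, 31.6 FPKM in resistant cells and 26.2 FPKM in parental cells, and its alpha partners Itgal and Itgad had at most 2 reads, Itgam at most 3 and Itgax at most 1 in any library. Itgb7 stood at 78.7 FPKM in Tyro3-KO cells, against 31.6 FPKM in resistant cells, while its partner Itga4 had 3 reads over all 8 libraries and its partner Itgae stood at 0.313 FPKM in Tyro3-KO cells, against 0.148 FPKM in resistant cells. Of Itgam, 68.7% of the exon bases are shared with another gene on the same strand, and its count is uncertain. Conversely, Itga6, the alpha partner of Itgb4, stood at 32.2 FPKM in Tyro3-OE cells, 41.3 FPKM in Tyro3-KO cells, 35.1 FPKM in resistant cells and 41.5 FPKM in parental cells, far above Itgb4 at 3.04, 1.32, 3.02 and 0.645 FPKM in the same groups. Itga6 is a laminin-binding subunit, and Itgb4 is not its only partner. Itgb1, the beta subunit shared by the laminin receptors, stood at 108, 138, 124 and 138 FPKM in the same groups. The known partnerships are background, and no protein was measured.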
